A study of Mus musculus with 22 samples.

Results

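The scaffold genes Dlg1, Dlg2, Dlg3, Dlg4, Shank1, Shank2, Shank3, Homer1, Homer2 and Homer3 were followed across 3 brain regions of wild-type and circTulp4-deficient mice. They were chosen by name, as the genes of 3 scaffold families of the postsynaptic density, and all 10 were found among the 23037 genes of the table. The RNA was that of 22 libraries of 3′ RNA-seq from 8 mice. The hippocampus was measured in 3 wild-type and 4 CD mice, the cortex in 4 wild-type and 4 CD mice, and the cerebellum in 4 wild-type and 3 CD mice. These are the libraries as labelled, 1 more in each group than the study describes. By their labels, libraries of different regions with the same mouse number come from the same animal.

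CD mice carry a change of the AG splice acceptor of circTulp4 to TC, made by CRISPR with a repair oligonucleotide, together with a further change in the motif recognized by Cas9. CircTulp4 is a circular RNA spliced from the Tulp4 gene, and the change, which is carried in all cells, lowers circTulp4 without removing it. Wild-type mice carry the unchanged site, and the line was kept on a C57BL/6 background. The age and sex of the mice used for RNA-seq are not given in the sources used here. The tissues are whole dissected regions, so every value is an average over neurons and glia.

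Dlg, Shank and Homer proteins form layers under the membrane of excitatory synapses. Dlg proteins, the membrane-associated guanylate kinases of the density, hold glutamate receptors and potassium channels through PDZ domains, and bind Dlgap proteins through their guanylate kinase domain. Dlgap proteins bind the PDZ domain of Shank, and Shank in turn binds the EVH1 domain of Homer. Long Homer proteins join into multimers and tie metabotropic glutamate receptors and IP3 receptors to this lattice, whereas a short Homer1 form, induced by neuronal activity, lacks the part that multimerizes.

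The genes are spread over 7 chromosomes of GRCm38. The Dlg genes lie with Dlg1 at chr16:31663443-31873356, Dlg2 at chr7:90476188-92449246, Dlg3 at chrX:100767411-100818410 and Dlg4 at chr11:70017203-70045535. The Shank genes lie with Shank1 at chr7:44308916-44360094, Shank2 at chr7:143978077-144426043 and Shank3 at chr15:89493013-89560261, and the Homer genes with Homer1 at chr13:93303757-93405129, Homer2 at chr7:81600481-81706925 and Homer3 at chr8:70282880-70294361. Homer2 is on the minus strand and the others are on the plus strand.

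The promoters of the 3 Homer genes are shown because these genes were highest in 3 different regions. RefSeq windows on GRCm38.p6 run from 250 bases before to 50 bases after a start site and were matched for 8 of the 10 genes, in 18 windows; Shank1 and Shank2 were not matched. The Homer1 window is chr13:93303507-93303806 on the plus strand, with its start site at the first base of the gene span given above. The Homer2 window is chr7:81706876-81707175 on the minus strand, and its start site is also at the first base of its gene span. The Homer3 window is chr8:70282749-70283048 on the plus strand, with a start site 119 bases downstream of the first base of its gene span. The start sites of the counted transcripts themselves were not compared. Capitals mark GC boxes, GGGCGG on either strand, which can overlap each other.
Homer1: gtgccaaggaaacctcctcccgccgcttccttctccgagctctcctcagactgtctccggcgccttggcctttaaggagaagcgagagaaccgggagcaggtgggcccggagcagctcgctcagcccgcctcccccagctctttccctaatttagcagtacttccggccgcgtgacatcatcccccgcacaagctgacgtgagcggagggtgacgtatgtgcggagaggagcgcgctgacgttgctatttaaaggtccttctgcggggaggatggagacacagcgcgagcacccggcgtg
Homer2: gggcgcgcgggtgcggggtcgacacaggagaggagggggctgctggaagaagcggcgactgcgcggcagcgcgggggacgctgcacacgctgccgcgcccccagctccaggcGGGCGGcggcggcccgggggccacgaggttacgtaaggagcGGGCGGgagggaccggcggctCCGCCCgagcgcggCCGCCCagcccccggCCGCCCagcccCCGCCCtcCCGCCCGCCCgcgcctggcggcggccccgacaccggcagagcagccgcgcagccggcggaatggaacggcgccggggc
Homer3: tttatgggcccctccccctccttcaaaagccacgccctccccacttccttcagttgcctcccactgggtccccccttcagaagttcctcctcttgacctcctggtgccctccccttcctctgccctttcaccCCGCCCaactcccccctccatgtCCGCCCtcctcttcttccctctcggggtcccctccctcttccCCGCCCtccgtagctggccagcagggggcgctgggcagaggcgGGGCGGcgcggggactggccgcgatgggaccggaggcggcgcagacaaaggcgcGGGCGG

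The Homer1 window held 63.0% G and C and 26 CG dinucleotides, and none of the letters searched. The Homer2 window held 82.3% G and C, 49 CG dinucleotides and 8 GC boxes. The Homer3 window held 69.7% G and C, 19 CG dinucleotides and 5 GC boxes. Over all 32851 RefSeq windows the median was 52.7% G and C with 7 CG dinucleotides, and 35.7% held a GC box. The cAMP response element TGACGTCA, held by 1.79% of all windows, the TATA box TATAAA, held by 13.6%, and the E-box CAGCTG, held by 16.3%, were searched on both strands and were not found in these 3 windows. Another Homer2 window, chr7:81692916-81693215, held 1 TATA box and 3 E-boxes. These matches describe letters, and nothing measured here bears on their use.

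Libraries held 2760846 to 8858940 counts with 1 transcript per gene. A value of 5 cpm, the minimum used to test a gene, stood for 13.8 to 44.3 counts. Levels are in cpm, counts relative to the library total, scaled by TMM over the 22 libraries. Summed markers of forebrain excitatory neurons were at 11057 to 13398 cpm in the hippocampus, 14325 to 20761 cpm in the cortex and 500 to 763 cpm in the cerebellum, and markers of cerebellar granule cells at 42.2 to 66.8, 35.6 to 56.1 and 2170 to 3198 cpm, as the labelled regions have these cells. Choroid plexus markers were uneven in the hippocampus, from 127 to 8291 cpm, against at most 119 cpm in the other regions. CircTulp4 has no poly(A) tail and was not measured on its own by this poly(A) assay. As a check of genotype, the counts of the Tulp4 transcript whose first exon lies within circTulp4 were taken in excess of those of a transcript that differs from it in the first exon, in cpm of the library total. Any reads of circTulp4 in that exon cannot be told apart from those of the linear transcript, so this excess is not a measure of linear Tulp4 alone. In the hippocampus this excess was 2.71 to 3.69 cpm in wild-type libraries and 0.423 to 0.573 cpm in 3 CD libraries, but 3.97 cpm in the library labelled CD of mouse m118, which thus went against its label. Hippocampal comparisons of genotype are therefore given with all libraries and, in a paragraph of their own, without it. In the cortex it was 1.45 to 6.02 cpm in wild-type and 0.141 to 1.29 cpm in CD libraries. In the cerebellum it was 3.12 to 13.6 cpm and 0.599 to 2.61 cpm. The check rests on few counts, which limits it. The hippocampal library of mouse m118 had 16 counts in excess, the other CD hippocampi 3, 4 and 5, and wild-type hippocampi 17, 22 and 24. In the cortex, wild-type mouse m244 had 4 and CD mouse m190 had 8. The cortical and cerebellar libraries of mouse m118, at 0.896 and 1.55 cpm, lay between other CD libraries of their region, unlike its hippocampal library. The cause was not tested, and comparisons within mice include that library as labelled.

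Differences between regions were tested with edgeR's quasi-likelihood test over 11137 genes, and a gene passed at a Benjamini-Hochberg FDR below 0.01 with a fold change above 2 or below 0.5. Of the 10 scaffold genes 9 reached the minimum level, and Shank3 did not. Between the cortex and the hippocampus, 3 of 9 passed, Dlg1 and Homer1 higher in the cortex and Homer3 lower, beside 8.41% of all genes tested, 4.38% higher and 4.03% lower. Between the cerebellum and the hippocampus, 5 of 9 passed, Homer3 higher in the cerebellum and Dlg3, Shank1, Homer1 and Homer2 lower, beside 22.8%. Between the cerebellum and the cortex, 4 of 9 passed, Homer3 higher and Shank1, Homer1 and Homer2 lower in the cerebellum, beside 22.6%.

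At an FDR below 0.01 with any fold, 6, 8 and 6 of the 9 genes passed in these comparisons, beside 25.9%, 50.7% and 51.7% of all genes. The median size of the log2 fold change was 0.32, 1.14 and 0.90 over the 9 genes, and 0.23, 0.43 and 0.43 over all genes tested. Libraries of the 2 regions did not overlap for 3, 7 and 6 of the 9 genes, beside 14.0%, 35.9% and 33.0% of all genes. The comparisons share libraries, so they are not independent of each other.

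**Figure D1:**
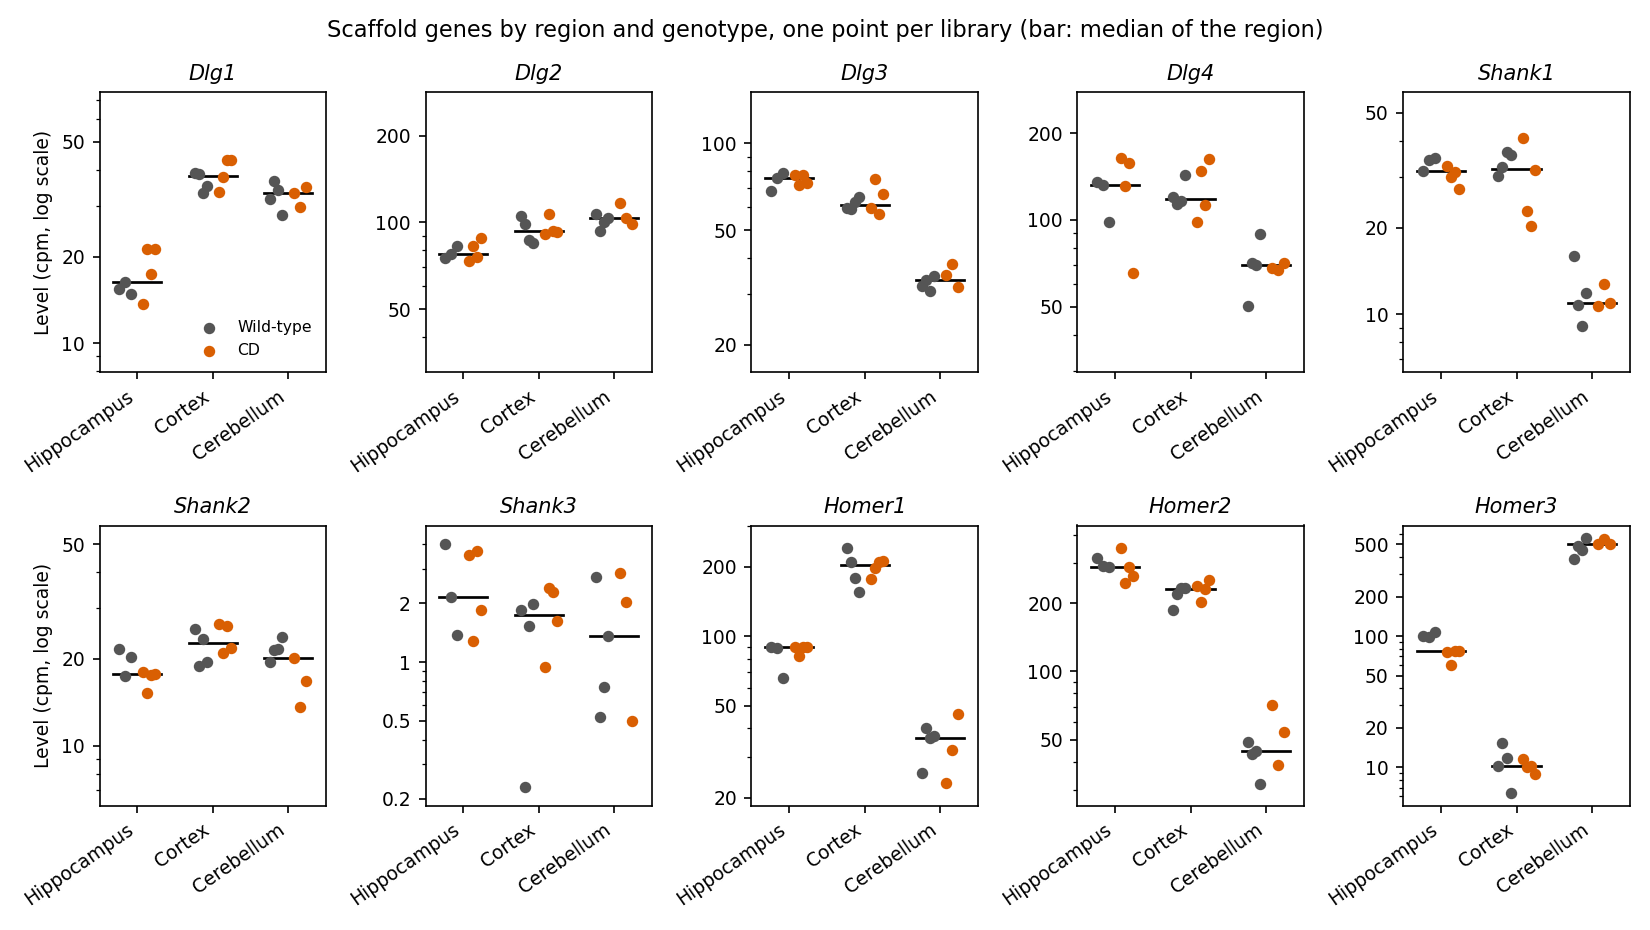
Level of each scaffold gene in every library, in cpm on a log axis, by region; grey points are wild-type and orange points CD libraries, and the bar is the median of the region. Homer3 runs from 6.37 cpm in the lowest cortical to 558 cpm in the highest cerebellar library, whereas Shank2 stays between 13.6 and 26.4 cpm.

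Homer3, the family member best known from Purkinje cells, had the widest regional range of the scaffold genes. It was at 389 to 558 cpm in the cerebellum with a median of 501 cpm, at 60.8 to 107 cpm in the hippocampus with a median of 77.5 cpm, and at 6.37 to 15.4 cpm in the cortex with a median of 10.2 cpm. The 3 regions did not overlap in any pair. Homer3 was 46.4-fold higher in the cerebellum than in the cortex, a log2 fold change of 5.54 (SE 0.12, FDR 3.36e-22). It was 5.75-fold higher in the cerebellum than in the hippocampus (log2 2.52, SE 0.10, FDR 1.02e-16) and 8.06-fold lower in the cortex than in the hippocampus (log2 -3.01, SE 0.11, FDR 4.49e-16). Within mice, the direction held in 7 of 7, 6 of 6 and 7 of 7 animals. Summed Purkinje cell markers were at 5525 to 6424 cpm in the cerebellum, 331 to 392 cpm in the hippocampus and 477 to 650 cpm in the cortex. They include Itpr1, which was also read in the hippocampus and the cortex, as given below with the Homer partners. The part of cell composition in the differences of Homer3 was not tested. In whole tissue more cells of a type and more RNA per cell cannot be told apart.

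The last 1496 bases of Homer3, chr8:70292866-70294361, overlap Ddx49, a helicase gene on the other strand. Whether the counting used strand is not given in the sources used here, and without strand reads of both genes cannot be told apart. Ddx49 was at 8.60 to 19.0 cpm in the hippocampus, 12.3 to 23.1 cpm in the cortex and 13.4 to 19.1 cpm in the cerebellum. The cortical level of Homer3 was thus no higher than that of its neighbour, while its hippocampal and cerebellar levels were well above it.

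Homer1, whose long forms are the common Homer proteins of forebrain synapses, was highest in the cortex. It was at 155 to 241 cpm there with a median of 203 cpm, at 65.98 to 90.3 cpm in the hippocampus with a median of 89.5 cpm, and at 23.1 to 46.2 cpm in the cerebellum with a median of 36.4 cpm. Again no pair of regions overlapped. Its level in the cortex was 2.33-fold that of the hippocampus (log2 1.22, SE 0.12, FDR 1.02e-08). In the cerebellum it was 5.72-fold lower than in the cortex (log2 -2.52, SE 0.13, FDR 8.24e-15) and 2.45-fold lower than in the hippocampus (log2 -1.30, SE 0.13, FDR 3.49e-09).

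These values are those of long Homer1 transcripts, whose 3 separate entries in the table gave a log2 fold change of 1.202 each between the cortex and the hippocampus. The short transcript, which ends far upstream in the gene, had 51 counts over all 22 libraries. It had 0 to 5 counts per library in the hippocampus, 2 to 8 in the cortex and 0 to 1 in the cerebellum, where 3 counts are the floor below which no difference was read. It was not tested. Immediate early genes, which neuronal activity induces as it does short Homer1, summed to 112 to 171, 317 to 740 and 38.9 to 51.4 cpm in the same regions.

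Homer2 was the Homer gene with the most counts in the hippocampus. It was at 245 to 351 cpm there with a median of 289.7 cpm, at 187 to 253 cpm in the cortex with a median of 232 cpm, and at 32.04 to 71.1 cpm in the cerebellum with a median of 44.6 cpm. The hippocampus and the cortex overlapped, and the cerebellum lay below both. Homer2 was 6.10-fold lower in the cerebellum than in the hippocampus (log2 -2.61, SE 0.12, FDR 7.67e-16) and 4.66-fold lower than in the cortex (log2 -2.22, SE 0.12, FDR 9.91e-15). Its cortical level was lower than the hippocampal one by less than 2-fold (log2 -0.39, SE 0.10, FDR 0.00508), in 7 of 7 mice.

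The make-up of the Homer family therefore differed by region. Homer2 gave a median of 62.7% of the Homer counts in the hippocampus, Homer1 18.6% and Homer3 17.999%. In the cortex Homer1 gave 45.5%, Homer2 52.4% and Homer3 2.39%. In the cerebellum Homer3 gave 84.8%, from 83.3% to 89.0% over the libraries, with Homer2 at 8.35% and Homer1 at 5.89%. Summed Homer levels had a narrower range than each Homer gene, from a median of 462 cpm in the hippocampus and 432 cpm in the cortex to 596 cpm in the cerebellum. Reads of 3′ libraries do not scale with transcript length, but genes can differ in how well their ends are read, so these shares compare regions rather than genes.

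**Figure D2:**
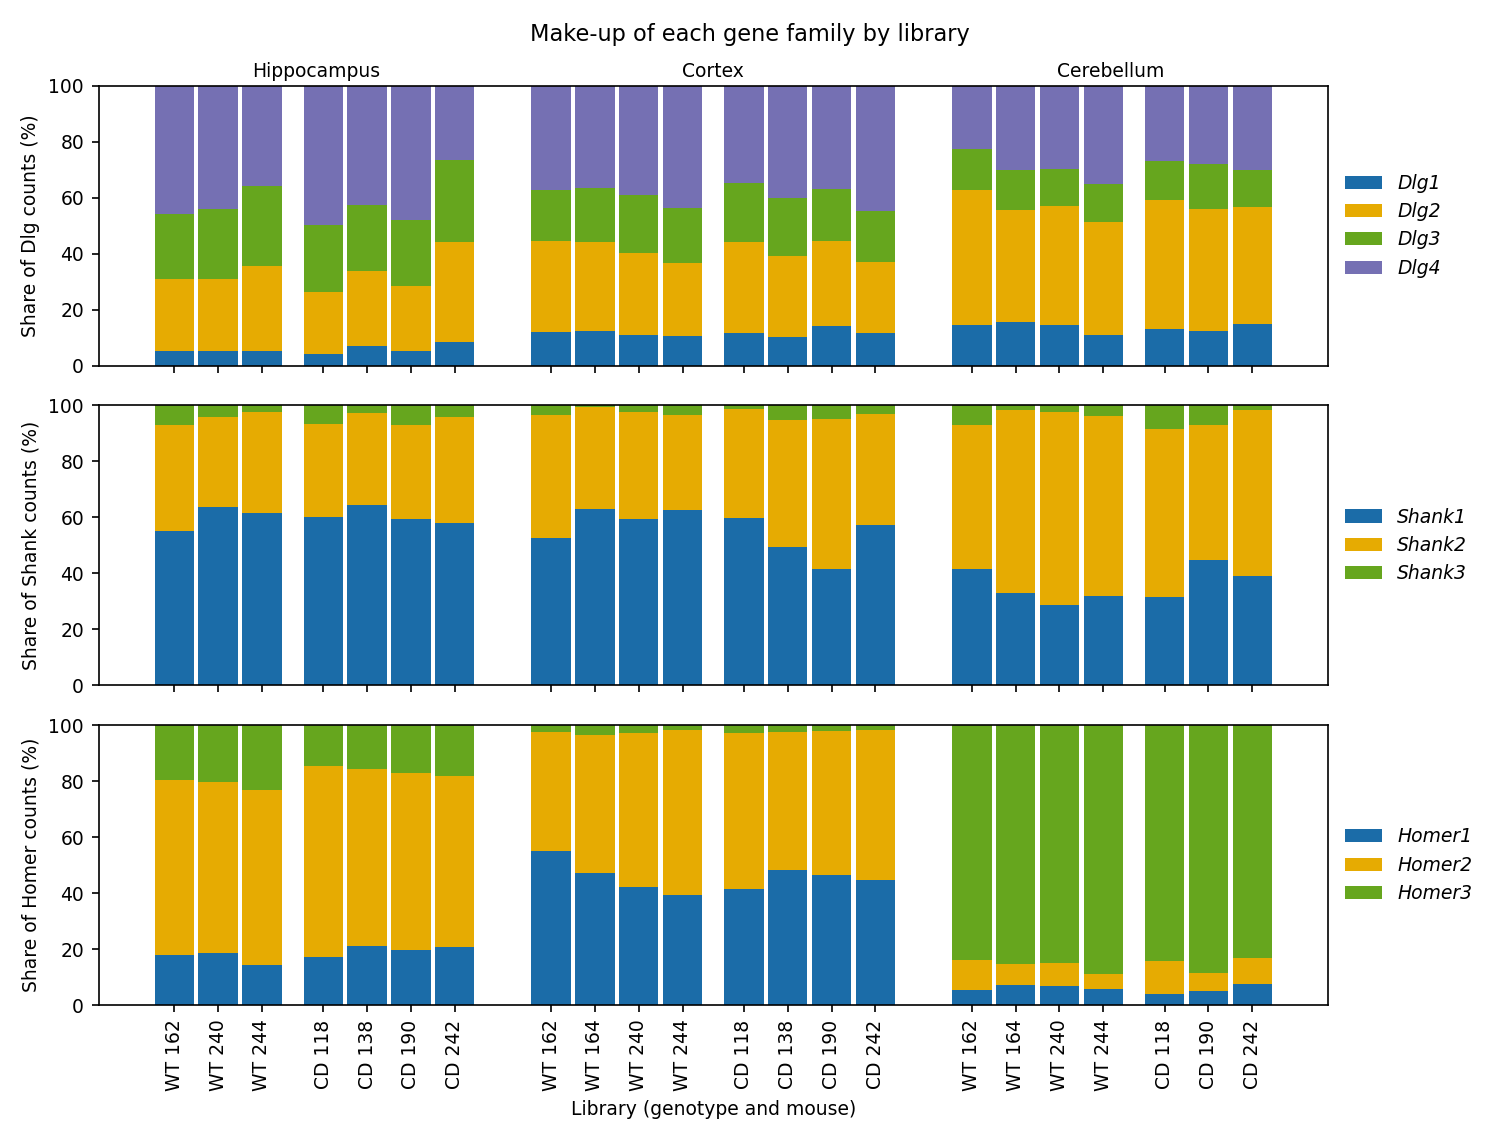
Share of the counts of the Dlg, Shank and Homer families given by each gene, in percent, with 1 bar per library grouped by region and genotype. In all 7 cerebellar libraries Homer3 gives at least 83.3% of the Homer counts, against at most 3.47% in the 8 cortical libraries.

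Among the Dlg genes, Dlg1, which encodes SAP97, was the one that differed 2-fold between the forebrain regions. It was at 13.7 to 21.3 cpm in the hippocampus with a median of 16.4 cpm, at 33.3 to 43.2 cpm in the cortex with a median of 38.2 cpm, and at 27.8 to 36.6 cpm in the cerebellum with a median of 33.2 cpm. The hippocampus lay below both other regions. Dlg1 was 2.23-fold higher in the cortex (log2 1.16, SE 0.10, FDR 8.97e-10). It was also higher in the cerebellum, by just under 2-fold (log2 0.94, SE 0.10, FDR 1.53e-08), and in 6 of 6 mice. The cerebellum and the cortex overlapped (log2 -0.22, SE 0.09, FDR 0.0453).

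Dlg2, which encodes PSD-93, differed little. Its range was 73.3 to 88.1 cpm in the hippocampus, 84.8 to 107 cpm in the cortex and 93.7 to 117 cpm in the cerebellum. It was higher than in the hippocampus by a log2 fold change of 0.26 in the cortex (SE 0.07, FDR 0.00461) and 0.39 in the cerebellum (SE 0.07, FDR 5.79e-05), neither reaching 2-fold. The cerebellum and the cortex differed by 0.12 on the log2 scale (95% interval -0.02 to 0.27, FDR 0.128).

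Dlg3, which encodes SAP102 and lies on the X chromosome, was lowest in the cerebellum. It was at 68.5 to 78.7 cpm in the hippocampus with a median of 75.8 cpm, at 56.9 to 75.03 cpm in the cortex with a median of 61.2 cpm, and at 30.8 to 38.1 cpm in the cerebellum with a median of 33.7 cpm. No cerebellar library reached the lowest library of either other region. Dlg3 was 2.21-fold lower in the cerebellum than in the hippocampus (log2 -1.14, SE 0.08, FDR 1.29e-12), and lower than in the cortex without reaching 2-fold (log2 -0.90, SE 0.07, FDR 8.52e-11). The cortex was lower than the hippocampus by a log2 fold change of -0.24 (SE 0.07, FDR 0.00800), with overlap.

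Dlg4, which encodes PSD-95, the most abundant scaffold protein of many excitatory synapses, did not pass the fold threshold in any pair. It was at 65.6 to 163.6 cpm in the hippocampus with a median of 133 cpm, at 98.7 to 163 cpm in the cortex with a median of 118.3 cpm, and at 50.3 to 89.7 cpm in the cerebellum with a median of 69.9 cpm. The cortex and the hippocampus overlapped over most of their range, with a difference of 0.01 on the log2 scale (95% interval -0.30 to 0.33, FDR 0.954). The cerebellum was lower than the hippocampus by a log2 fold change of -0.86 (SE 0.16, FDR 5.89e-05) and lower than the cortex by -0.87 (SE 0.16, FDR 3.42e-05). In the hippocampus 1 library, from CD mouse m242, was at 65.6 cpm while the other 6 were at 98.6 to 163.6 cpm. Within mice, the cortex minus hippocampus difference of Dlg4 ran from -0.73 to 1.31 on the log2 scale, the widest of the Dlg genes.

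**Figure D3:**
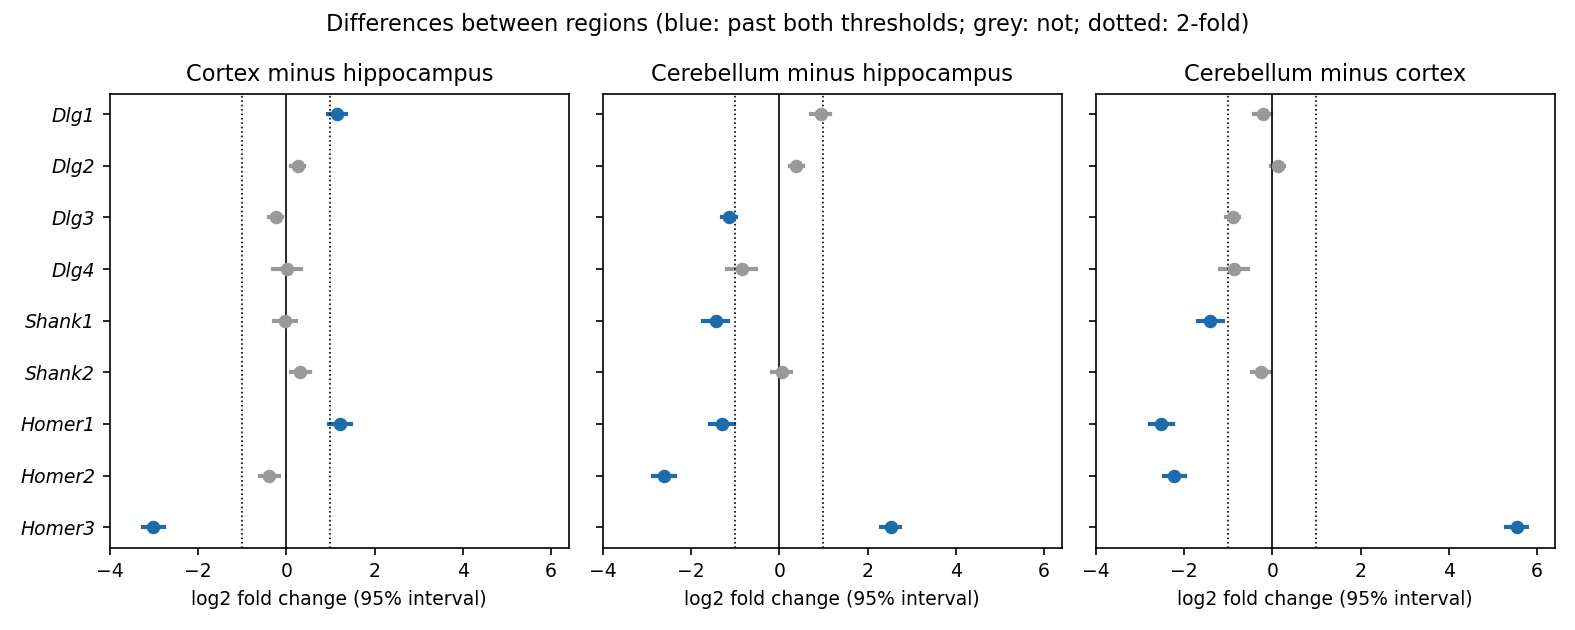
Log2 fold change of the 9 tested scaffold genes in the 3 pairs of regions, with 95% intervals; blue marks genes past both thresholds, and dotted lines mark 2-fold. Homer3 stands at -3.01, 2.52 and 5.54, while Dlg2 and Shank2 lie within the dotted lines in all 3 panels.

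Of the Shank genes, which encode the scaffolds that join Dlgap and Homer proteins, Shank1 was lower in the cerebellum. It was at 27.1 to 34.9 cpm in the hippocampus with a median of 31.5 cpm, at 20.3 to 40.9 cpm in the cortex with a median of 32.01 cpm, and at 9.10 to 15.9 cpm in the cerebellum with a median of 10.98 cpm. The 2 forebrain regions overlapped, and the cerebellum lay below both. Shank1 was 2.71-fold lower in the cerebellum than in the hippocampus (log2 -1.44, SE 0.14, FDR 1.76e-09) and 2.65-fold lower than in the cortex (log2 -1.41, SE 0.14, FDR 1.86e-09). Its difference between the cortex and the hippocampus was -0.03 on the log2 scale (95% interval -0.29 to 0.23, FDR 0.873). In the GENCODE annotation, where Shank1 ends beyond the span given above, it overlaps 1700008O03Rik on the other strand over 530 bases, chr7:44360043-44360572. That gene was at 0.678 to 4.05 cpm.

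Shank2 did not pass the thresholds in any pair of regions. It was at 15.2 to 21.7 cpm in the hippocampus, 18.8 to 26.4 cpm in the cortex and 13.6 to 23.9 cpm in the cerebellum, and every pair of regions overlapped. The log2 fold change was 0.32 between the cortex and the hippocampus (95% interval 0.11 to 0.53, FDR 0.0160), 0.05 between the cerebellum and the hippocampus (95% interval -0.16 to 0.27, FDR 0.676) and -0.26 between the cerebellum and the cortex (95% interval -0.47 to -0.05, FDR 0.0281). Shank2 accordingly gave 33.4% of the Shank counts in the hippocampus and 59.8% in the cerebellum, where Shank1 gave 33.0% in place of 60.3%.

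Shank3 had 246 counts over all libraries, 1 to 25 in each, under the minimum for a test. It was at 1.28 to 3.998 cpm in the hippocampus, 0.230 to 2.40 cpm in the cortex and 0.499 to 2.87 cpm in the cerebellum. With no minimum level, its log2 fold changes were -0.63 (FDR 0.214), -0.69 (FDR 0.120) and -0.06 (FDR 0.999) in the order of the comparisons above, so no difference was detectable at these counts.

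Transcripts of a gene that end at different places can be read apart by 3′ counts. For the 9 genes, 49 distinct transcript entries reached the minimum level, and 16, 12 and 9 of them passed in the 3 comparisons, beside 7.64%, 22.9% and 23.2% of 19541 entries. All entries of a gene shared its call in each comparison, and its direction except for Dlg4 between the cortex and the hippocampus, where the 5 entries were at -0.0030 to -0.0016 and the gene at 0.014 on the log2 scale. They share reads, so this is 1 measurement per gene.

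The partners of the scaffolds were described with 6 lists, 53 genes in all, of which 50 were tested between regions. Only Grip2, another PDZ scaffold, passed between the cortex and the hippocampus, beside the 8.41% of all genes; it was low, at 0.687 to 3.84 cpm in the hippocampus and 4.79 to 8.06 cpm in the cortex (log2 1.74, SE 0.27). Low log2 fold changes of the lists in this comparison were those of the depalmitoylase gene Abhd17c (-0.88, SE 0.13), Dlg5 (-0.78, SE 0.16), the cortactin gene Cttn (-0.62, SE 0.16) and Anks1b (-0.58, SE 0.08). High ones were those of Itpr1 (0.82, SE 0.08), Lzts3 (0.79, SE 0.22), Dlgap3 (0.72, SE 0.08), Iqsec1 (0.54, SE 0.09) and Zdhhc2 (0.39, SE 0.22), and none of these reached 2-fold. Between the cerebellum and the hippocampus 24 of 50 passed, 6 higher and 18 lower in the cerebellum, beside 9.76% and 13.0% of all genes in these directions. Between the cerebellum and the cortex 27 of 50 passed, 5 higher and 22 lower, beside 9.71% and 12.9%.

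Of the 4 Dlgap genes, which link Dlg to Shank, Dlgap2 and Dlgap3 passed, lower in the cerebellum in both comparisons. Of all genes, 13.0% and 12.9% did so from the hippocampus and the cortex. Dlgap2 was at 55.0 to 78.2 cpm in the hippocampus, 82.7 to 114 cpm in the cortex and 1.06 to 2.44 cpm in the cerebellum. Its log2 fold change was -5.18 (SE 0.14) from the hippocampus and -5.65 (SE 0.14) from the cortex. Dlgap3 was at 183 to 237, 288 to 382 and 74.998 to 86.9 cpm, with log2 fold changes of -1.32 (SE 0.08) and -2.04 (SE 0.08). Dlgap1 and Dlgap4 were also lower at an FDR below 0.01, at -0.73 and -0.46 from the hippocampus and -0.61 and -0.82 from the cortex, without reaching 2-fold.

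Homer partners moved in both directions between the cerebellum and the hippocampus. Of 7 tested, 3 were higher and 3 lower, beside 9.76% and 13.0% of all genes. Grm5, which encodes a metabotropic glutamate receptor, was at 2.25 to 5.36 cpm in the cerebellum, 129 to 182 cpm in the hippocampus and 85.8 to 109 cpm in the cortex. Its log2 fold change was -5.18 (SE 0.12) between the cerebellum and the hippocampus and -4.57 (SE 0.12) between the cerebellum and the cortex. The IP3 receptor gene Itpr1, which is also in the Purkinje list, was at 915 to 1132 cpm in the cerebellum, 117 to 182 cpm in the hippocampus and 251 to 322 cpm in the cortex (log2 2.70, SE 0.09, and 1.88, SE 0.08).

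Of 14 Dlg-binding adaptors and signalling proteins, 7 were lower in the cerebellum than in the hippocampus, beside 13.0% of all genes. Against the cortex 8 were lower, beside 12.9%. None was higher in either comparison, beside 9.76% and 9.71%. The largest difference was that of Gda, which encodes the PSD-95 binding protein cypin, at 69.9 to 102.6 cpm in the hippocampus and 2.40 to 3.49 cpm in the cerebellum (log2 -4.87, SE 0.13). Adam22, the receptor of the secreted protein Lgi1, had the highest log2 fold change of the list in the same comparison, 0.68 (SE 0.12), which did not reach 2-fold. From the cortex, Gda differed by -5.38 (SE 0.13) and Adam22 by 0.33 (SE 0.12). Of 6 Shank partners, Arhgef7, which encodes the exchange factor beta-PIX, was higher in the cerebellum (log2 1.11, SE 0.11), and Lrrc7, which encodes densin, was lower (log2 -4.15, SE 0.17). Both also passed against the cortex, with log2 fold changes of 1.07 (SE 0.11) and -3.74 (SE 0.17).

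Of 13 other PDZ scaffolds tested against the hippocampus, 2 were higher and 4 lower in the cerebellum, beside 9.76% and 13.0% of all genes. Lin7a was at 23.8 to 30.9 cpm in the hippocampus and 119 to 169 cpm in the cerebellum (log2 2.41, SE 0.09), while its relative Lin7b was at 163 to 195 cpm and 22.7 to 45.7 cpm (log2 -2.31, SE 0.15). Against the cortex they differed by 1.61 (SE 0.08) and -2.49 (SE 0.15). Of 6 enzymes that add or remove palmitate on PSD-95, only the depalmitoylase gene Abhd17c passed between the cerebellum and the hippocampus (log2 -1.37, SE 0.13). In that comparison 22.8% of all genes passed. The highest value of the list was that of Zdhhc17 (log2 0.44, SE 0.14). Between the cerebellum and the cortex only the palmitoyltransferase gene Zdhhc2 passed (log2 -1.02, SE 0.23), beside 22.6% of all genes. Its value was close to the fold threshold and was under 2-fold without any of 5 single libraries. The highest value of the list was that of Abhd17b (log2 0.68, SE 0.06).

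**Figure D4:**
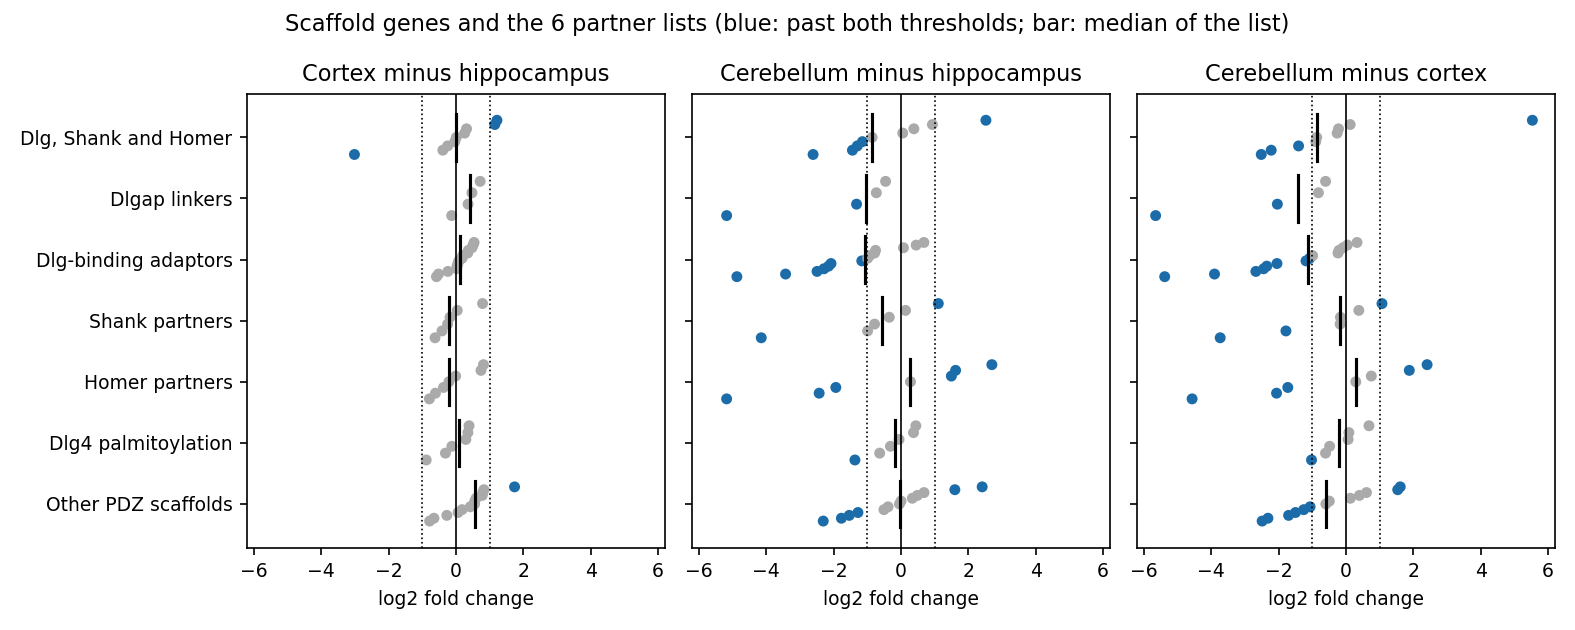
Log2 fold change of each tested scaffold gene and of each gene of the 6 partner lists, in the 3 pairs of regions; blue points passed both thresholds, and the black bar is the median of the list. The medians of the Dlgap genes, -1.02 and -1.43 in the comparisons with the cerebellum, and of the Dlg-binding adaptors, -1.08 and -1.13, lie left of zero.

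The genes with the most similar pattern over the 22 libraries, by Pearson's r of log2 cpm, are a description, since the libraries share regions and mice. They were Nsg2 (0.987) and Rap2b (0.986) for Homer2, Tunar (0.983) and Kif26b (0.979) for Homer3, Ptk2b (0.983) and Erc2 (0.980) for Dlg3, and Tmem44 (0.981) and 9130024F11Rik (0.980) for Homer1. For the others they were Dpp10 (0.963) and Ipcef1 (0.959) for Dlg1, Tmem119 (0.952) and Miat (0.949) for Shank1, Lratd1 (0.888) and Ptpn1 (0.877) for Dlg4, Inha (0.877) and Garnl3 (0.875) for Dlg2, and Slc23a2 (0.717) and Ndfip1 (0.706) for Shank2.

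Between genotypes no scaffold gene passed the thresholds. With edgeR's quasi-likelihood test, 0 of 9 passed in the hippocampus, the cortex and the cerebellum, beside 0% of the 9964, 9927 and 10142 genes tested. At an unadjusted p below 0.05 there were 1, 0 and 1 scaffold genes, beside 4.22%, 3.30% and 4.56% of all genes. DESeq2 also called none, with 1, 0 and 0 genes at an unadjusted p below 0.05. Over the 3 regions together, limma with the mouse as a random block called 0 of 9, beside 0% of 11137 genes. The log2 fold changes ran from -0.17 to 0.12, and none had an unadjusted p below 0.05, beside 3.58% of all genes. The 95% intervals in single regions ran from -0.72 to 0.78 at the widest, so 2-fold differences lie outside all of them.

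With all libraries, the scaffold genes other than Homer3 overlapped between genotypes in every region. In the cortex and the cerebellum 0 of the 9 tested genes had libraries that did not overlap, beside 2.55% and 5.32% of all genes. Among the Dlg genes, hippocampal Dlg1 was at 14.8 to 16.4 cpm in wild-type and 13.7 to 21.3 cpm in CD libraries, Dlg2 at 75.1 to 82.8 and 73.3 to 88.1 cpm, and Dlg3 at 68.5 to 78.7 and 71.7 to 77.9 cpm. In the cortex Dlg1 was at 33.3 to 39.0 and 33.5 to 43.2 cpm, Dlg2 at 84.8 to 105 and 91.1 to 107 cpm, and Dlg3 at 59.3 to 65.3 and 56.9 to 75.03 cpm. In the cerebellum they were at 27.8 to 36.6 and 29.7 to 34.9, at 93.7 to 107 and 98.5 to 117, and at 30.8 to 34.7 and 31.7 to 38.1 cpm. The ranges of the genotypes overlapped in each of these 9 pairs. Homer1 was at 65.98 to 90.2 cpm in wild-type and 82.2 to 90.3 cpm in CD hippocampi, 155 to 241 and 177 to 211 cpm in the cortex, and 25.7 to 40.3 and 23.1 to 46.2 cpm in the cerebellum. Homer2 was at 290 to 317 and 245 to 351 cpm, 187 to 234 and 202 to 253 cpm, and 32.04 to 48.9 and 38.9 to 71.1 cpm, with the highest log2 fold change of the scaffold genes in the cerebellum, 0.38 (SE 0.19, unadjusted p 0.0691, FDR 0.981). Over the alternatives this fold change ran from 0.15 to 0.57. Its smallest unadjusted p among them was 0.00574, with edgeR and no filter, at an FDR of 0.454. Hippocampal Shank1 was at 31.5 to 34.9 and 27.1 to 32.6 cpm and Shank2 at 17.4 to 21.7 and 15.2 to 17.96 cpm. The few counts of Shank3 gave 1.37 to 3.998 and 1.28 to 3.69 cpm in the hippocampus, 0.230 to 1.99 and 0.941 to 2.40 cpm in the cortex, and 0.523 to 2.73 and 0.499 to 2.87 cpm in the cerebellum.

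Without the library of mouse m118, which left 3 CD hippocampi, 0 of the 9 genes passed, beside 0% of 9861 genes. At an unadjusted p below 0.05 there were 2, Homer3 and Dlg1, beside 4.42% of all genes. Libraries of the genotypes did not overlap for 4 of 9 genes, beside 9.20% of all genes. Dlg1 was then at 17.4, 21.2 and 21.3 cpm in CD libraries, above all wild-type libraries, with a log2 fold change of 0.37 in place of 0.26 (unadjusted p 0.0342, FDR 0.998). Homer2 was at 244.8 to 287.5 cpm, below all wild-type libraries, with -0.17 in place of -0.07 (unadjusted p 0.132, FDR 0.998). Shank1 was at 27.1 to 31.3 cpm, also below, with -0.18 in place of -0.15 (unadjusted p 0.188, FDR 0.998). Homer3 is described with its other values, and Shank2 was at 15.2 to 17.7 cpm, with overlap (log2 -0.22 in place of -0.21). Dlg2, Dlg3 and Homer1 also overlapped, with log2 fold changes of 0.078, 0.0035 and 0.10. Of 48 partner genes, 0 passed and 2 had an unadjusted p below 0.05. Summed microglia markers were at 167 to 171 cpm in these 3 CD libraries.

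Dlg4 is given by library because its protein was measured in other samples of the CD line. In the hippocampus it was at 98.6, 133 and 135 cpm in wild-type and at 65.6, 131, 158 and 163.6 cpm in CD libraries, which overlap (log2 0.08, 95% interval -0.48 to 0.64, FDR 0.997). Without the CD library of mouse m118 the log2 fold change was -0.04 (FDR 0.998). In the cortex it was at 114, 116, 120.3 and 143 cpm in wild-type and 98.7, 113, 148 and 163 cpm in CD libraries (log2 0.08, 95% interval -0.24 to 0.41, FDR 0.9999). In the cerebellum it was at 50.3, 69.9, 70.6 and 89.7 cpm in wild-type and 66.9, 68.2 and 71.0 cpm in CD libraries (log2 -0.02, 95% interval -0.37 to 0.32, FDR 0.997).

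Homer3 had the smallest unadjusted p, in the hippocampus. It was at 97.9, 99.6 and 107 cpm in wild-type and at 60.8, 76.1, 77.4 and 77.5 cpm in CD libraries. The value of 76.1 cpm was that of mouse m118, whose library went against its label in the genotype check. As labelled, all 4 CD libraries were lower than all 3 wild-type libraries, which 5.44% of the genes tested also showed in one direction or the other. With that library read as wild-type, this would not hold. The log2 fold change of Homer3 was -0.48 (SE 0.11, 95% interval -0.72 to -0.23) with an unadjusted p of 0.00136 and an FDR of 0.997, so it failed the correction. Without the library of mouse m118 it was -0.49 with an unadjusted p of 0.00204 and an FDR of 0.998, and without that of mouse m138, the lowest, -0.39 with 0.00469 and 0.9999. Over all alternatives its FDR was between 0.211 and 0.99995. The genotypes overlapped in the cortex, at 6.37 to 15.4 cpm in wild-type and 8.87 to 11.5 cpm in CD libraries, and in the cerebellum, at 389 to 558 and 501 to 552 cpm. The difference of its genotype effect between regions had an unadjusted p of 0.0166 and an FDR of 0.999. Of all genes, 3.91% had an unadjusted p below 0.05 in that test. No scaffold gene had an FDR below 0.05 in it, beside 0% of 11137 genes. Of all the marker lists, only that of microglia did not overlap between genotypes in the hippocampus. As labelled, it was at 158 to 171 cpm in CD and 174 to 188 cpm in wild-type libraries. The lowest CD value, 158 cpm, was that of mouse m118. With that library read as wild-type, the microglia list would overlap as well. The other lists overlapped. Purkinje cell markers were at 348 to 392 against 331 to 392 cpm. Markers of the dentate gyrus and hippocampal fields were at 1072 to 1444 against 1237 to 1607 cpm. The part of any of these in the value of Homer3 was not tested.

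Shank2 in the cerebellum was at 19.6, 21.5, 21.7 and 23.9 cpm in wild-type and at 13.6, 16.7 and 20.1 cpm in CD libraries, which overlap. Its log2 fold change was -0.37 (SE 0.16, 95% interval -0.71 to -0.03) with an unadjusted p of 0.0367 and an FDR of 0.981. Without the CD library of mouse m190 it was -0.24 with an unadjusted p of 0.159. In the cortex the smallest unadjusted p was that of Shank1, 0.266 (log2 -0.23, SE 0.20, FDR 0.9999), with wild-type libraries at 30.2 to 36.6 cpm and CD libraries at 20.3 to 40.9 cpm. The partner lists gave no gene past the thresholds either, among 48, 50 and 43 tested, with 4, 3 and 1 genes at an unadjusted p below 0.05, beside the 4.22%, 3.30% and 4.56% of all genes.

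**Figure D5:**
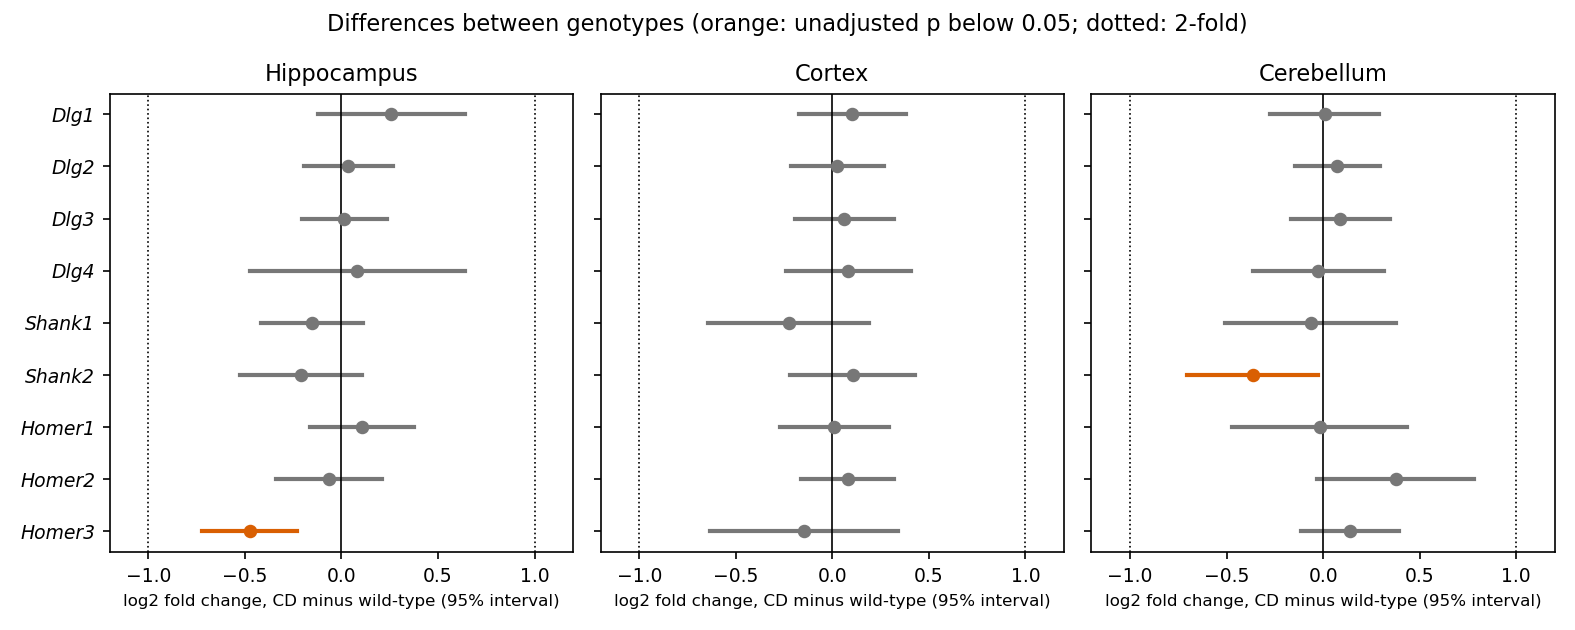
Log2 fold change of the 9 tested scaffold genes between CD and wild-type mice in each region, with 95% intervals; orange marks an unadjusted p below 0.05, and dotted lines mark 2-fold. Homer3 in the hippocampus, at -0.48, and Shank2 in the cerebellum, at -0.37, are the 2 values whose interval leaves out zero, and neither passed the correction.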

How the data were processed

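RNA from the dissected cortex, hippocampus and cerebellum was made into CelSeq2 libraries, which read the 3′ ends of poly(A) RNA, and sequenced on a NextSeq 500. The authors aligned reads with STAR to mm10 and deposited ESAT counts per RefSeq transcript, with no normalization. The RefSeq release, the collapse of UMIs and the use of strand are not given in the sources used here. Of 85964 transcripts, 69288 were matched to genes by RefSeq identifier (80.6%), and the transcript with the most counts over 22 libraries stood for each gene.

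Samples were grouped by the genotype and region in their labels, and the number in a label is that of the mouse. Genes at 5 cpm in at least 2 of the libraries compared were tested with edgeR 4.0.16 (quasi-likelihood, TMM scaling, R 4.3.3) with Benjamini-Hochberg adjustment, and passed at an FDR below 0.01 with a fold change above 2 or below 0.5. Genotype over 3 regions together was tested with limma 3.58.1 and a correlation within mice. Alternatives were DESeq2 1.42.0, other scaling, other filters, summed transcripts and leaving out each library. Tests between regions averaged the wild-type and CD groups. Like the test of genotype effects between regions, they had no term for the mouse. Regions are paired by mouse, which entered these tests only in an alternative with the mouse as a replicate block. Deviations of libraries of the same mouse correlated by a mean r of 0.083 for the hippocampus with the cortex. The mean r was 0.047 for the hippocampus with the cerebellum and -0.0036 for the cortex with the cerebellum.

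The scaffold genes and the lists were chosen with earlier results of these data known. All scaffold genes were named between regions. Between genotypes the gene with the smallest unadjusted p in each region, any under 0.05 and Dlg4 were named, and of each partner list the largest change in each direction, with Dlgap1 to Dlgap4, Grm5 and Itpr1 always. 1 partner gene that this rule names is not reported here. The fits were tested on simulated data. Libraries of a group come from separate mice.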

Additional observations from a re-analysis of the deposited data

Results flagged for a closer look

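In groups of 4, a library was marked when its gap to the nearest of the others was large for the range of the group by Dixon's criterion. Of 40 groups of scaffold gene levels, 4 were marked, where chance gives about 2. In the CD hippocampus, the library of mouse m138 was the lowest for Homer3, at 60.8 cpm against 76.1 to 77.5 cpm in the other 3, for Homer1, at 82.2 cpm against 89.5 to 90.3 cpm, and for Shank2, at 15.2 cpm against 17.6 to 17.96 cpm. In the CD cortex, the library of the same mouse was the highest for Dlg2, at 107 cpm against 91.1 to 93.7 cpm. The cause was not tested.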

How the results depend on the processing

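The counts of scaffold genes past the thresholds were the same under all alternatives run, in 34 checks with another setting and 110 with a library left out. With the mouse as a replicate block, 926, 2548 and 2520 genes were called between regions in place of 937, 2539 and 2516, the calls of the scaffold genes did not change, and Homer3 differed between the cerebellum and the cortex by a log2 fold change of 5.50. Among named partners, Zdhhc2 fell under 2-fold between the cerebellum and the cortex with the block (log2 -0.97) and without any of 5 single libraries (-0.98 to -0.90). No paired analysis was possible because wild-type and CD mice share no number, for the comparisons of genotype.

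Between regions, directions changed for 3 differences, none of which passed. Shank1 between the cortex and the hippocampus was 0.093 with distinct transcripts summed, and -0.13 to 0.035 with a library left out. With a library left out, Dlg4 ran from -0.097 to 0.073 between the cortex and the hippocampus and Shank2 from -0.012 to 0.12 between the cerebellum and the hippocampus. For genotype, 15 of 27 differences changed sign under some alternative, with main values between -0.15 and 0.10. Among them, Shank1 in the cerebellum was 0.43 with distinct transcripts summed, Homer3 in the cortex was 0.054 without the wild-type library of mouse m164, and Homer1 in the hippocampus was -0.026 without that of mouse m244. With a library left out, Dlg4 ran from -0.048 to 0.31 in the hippocampus, -0.043 to 0.20 in the cortex and -0.16 to 0.12 in the cerebellum. Without the CD cortex library of mouse m118, Shank1 was -0.43 in the cortex with an unadjusted p of 0.0273. Shank3 and short Homer1 were read with few counts, which limits what can be said of them. The reason for these few counts was not tested. The overlap of hippocampal libraries without mouse m118 was examined after seeing the data.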

Other observations

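The spread between libraries of a group differed among the scaffold genes. Over the 6 groups, the coefficient of variation of Dlg3 had a median of 6.17% and that of Dlg2 7.996%, while that of Homer1 was 17.5% and that of Dlg4 19.7%. Dlg4 ranged from 3.03% to 34.7% over the groups. Shank3 had the highest median, 55.6%, at its few counts.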
